A study of Mus musculus with 20 samples.

Results

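Among the open chromatin regions of the mouse upper hair follicle lineage followed through wound healing, 457 of 101406 were called 8 weeks after a first wound and again 1 week after a second wound, and neither in unwounded homeostasis nor 1 week after the first wound. These late-opening kept regions make up 0.451% of the union of all peaks. They were chosen by presence and absence in 4 lists of peaks: a union region is the merged interval of peaks that overlap by at least 1 bp in any of the 10 deposited lists, and a list holds a region when 1 of its peaks lies in it. The count itself, and every value from those 4 lists, is therefore a description and carries no test.

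The assay was ATAC-seq: Tn5 transposase inserts sequencing adapters where DNA is not covered by nucleosomes. All cells came from tail epidermis of Lrig1CreER/Rosa-TdTomato mice, in which tamoxifen-inducible Cre is expressed from Lrig1 and switches on a red reporter, so that the marked lineage (Lrig1 GL in the labels) descends from cells that expressed Lrig1 when labelled. Cells positive for Sca1, a surface protein of the upper follicle and interfollicular epidermis, were sorted from it. The 10 groups have 2 libraries each. The wound course comprised homeostasis, 1 week after the first wound, 8 weeks after the first wound and 1 week after the second wound. Epidermis treated with vehicle or with PRT4165, which inhibits the ubiquitination of histone H2A by a Polycomb repressive complex, formed the next groups, both with 0 weeks in their titles. Further groups were epidermis treated with UVB and epidermis that was wounded and treated with UVB. The last groups were cultured cells taken 8 weeks after the first wound from a control region described as without memory or from a distal memory region. The labels used here do not give the age or sex of the mice, the number of animals behind a library, doses, the duration of culture or the order of wounding and UVB. Both libraries of a group went into a single list of peaks, so no spread between libraries and no test between groups can be given, and every interval below covers counting error only.

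Lrig1 marks stem cells of the follicle junctional zone, next to the sebaceous gland, which can move into the interfollicular epidermis after injury and contribute to its repair. Wounding changes which enhancers and promoters are open in such cells, and open sites that persist after healing have been described in epidermal stem cells as a form of memory of an earlier insult. A region that is not called early, called after healing and called again at rewounding follows 1 of the time courses such a memory could take. Absence from a list does not mean that a site was closed. An accessible site by itself says nothing of the expression of a gene.

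The lists differed in length, which bears on every presence and absence. The 4 wound-course lists had 34644 to 49078 merged regions, the 4 lists of treated epidermis 66541 to 73340, and the cultured lists 54188 (control) and 45714 (distal). Of 13 markers of keratinocytes and of the sorted lineage, 10 to 12 had a region within 1 kb of a gene end in every list, among them Krt5, Krt14, Itga6 and Lrig1. Ly6a, which encodes Sca1, had such a region in the 4 lists of treated epidermis and in the cultured control list, and in none of the 4 wound-course lists. Markers of other cells had fewer: 1 to 5 of 13 for fibroblasts, 2 to 5 of 13 for T cells, 3 to 6 of 12 for macrophages and Langerhans cells, 2 to 3 of 9 for melanocytes, 1 to 3 of 10 for endothelium. Merkel cell markers had 0 of 9 at 8 weeks and after the second wound, 2 of 9 in homeostasis, 3 of 9 at 1 week and 4 to 6 of 9 in the 6 other lists. Single markers differed between the early and the late lists in both directions. Thy1, a marker of fibroblasts and of T cells, had a region at a gene end in the 8-week and the second-wound list and in neither early list, and Cd27, of T cells, in both early lists and in neither late list. The fibroblast markers Vim and Col1a1 each had a region at a gene end in homeostasis and at 8 weeks, and neither had one after the second wound. At 1 week Vim had such a region and Col1a1 did not. The late-opening kept regions assigned to markers of these 6 other cell types numbered 0, of 35 to 88 union regions per type, where 0.449% of the union regions of all genes are late-opening kept. The part of cell composition in the results was not tested.

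Of the 457 regions, 18 overlapped a promoter of RefSeq (19 promoters of 18 genes, defined here as the 250 bases before an annotated start site in GRCm38.p6, the assembly of mm10). These are the members for which sequence can be set beside the accessibility, and 7 are shown. The regions of Gask1b and Gjb6 cover only the part of the promoter next to the start site. The promoters of Fkbp11, Tspan1, Aff2, Pcdh8, Syn1 and Gask1b lie under regions with mean percentiles of signal value of 20.1 to 38.5 in the 8-week and second-wound lists. Those of Aadat (42.3, the strongest), Spock2 (27.9) and Spsb4 (26.3) are not shown, so the choice does not follow strength alone. Syn1 and Gask1b have the only cAMP response element and the only AP-1 match of the 19. The promoter of Gjb6 is shown because the gene encodes connexin 30, a gap junction protein of the skin. They were picked after their values were seen. Each is written 5′ to 3′ on the strand of its gene. Capitals mark matches to TGANTCA (AP-1), TGACGTC (cAMP response element), CCGGAA (ETS core), GGGCGG (GC box), CCAAT (the box of that name) or CACCC (SP/KLF) on either strand.
Fkbp11 (chr15:98728199-98728448, minus strand): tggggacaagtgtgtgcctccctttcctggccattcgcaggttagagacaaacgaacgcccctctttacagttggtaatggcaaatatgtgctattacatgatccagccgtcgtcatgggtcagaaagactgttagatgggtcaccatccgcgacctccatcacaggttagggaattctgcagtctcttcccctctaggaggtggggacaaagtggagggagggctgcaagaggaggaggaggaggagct
Tspan1 (chr4:116167599-116167848, minus strand): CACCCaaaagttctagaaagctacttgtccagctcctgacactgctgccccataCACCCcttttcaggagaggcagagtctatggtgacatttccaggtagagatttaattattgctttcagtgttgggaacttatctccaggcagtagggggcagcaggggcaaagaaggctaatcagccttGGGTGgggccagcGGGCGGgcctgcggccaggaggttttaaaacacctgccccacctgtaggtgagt
Aff2 (chrX:69360081-69360330, plus strand): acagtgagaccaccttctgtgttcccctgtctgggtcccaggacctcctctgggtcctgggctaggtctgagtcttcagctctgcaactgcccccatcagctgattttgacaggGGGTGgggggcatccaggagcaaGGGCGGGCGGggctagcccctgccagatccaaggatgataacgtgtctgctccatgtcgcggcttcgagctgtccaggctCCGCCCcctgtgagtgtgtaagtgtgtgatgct
Pcdh8 (chr14:79771313-79771562, minus strand): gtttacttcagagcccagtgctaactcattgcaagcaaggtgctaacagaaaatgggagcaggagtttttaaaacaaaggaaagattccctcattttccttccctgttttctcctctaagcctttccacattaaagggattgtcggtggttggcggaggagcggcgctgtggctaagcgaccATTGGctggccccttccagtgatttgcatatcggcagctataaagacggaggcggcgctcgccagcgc
Syn1 (chrX:20920919-20921168, minus strand): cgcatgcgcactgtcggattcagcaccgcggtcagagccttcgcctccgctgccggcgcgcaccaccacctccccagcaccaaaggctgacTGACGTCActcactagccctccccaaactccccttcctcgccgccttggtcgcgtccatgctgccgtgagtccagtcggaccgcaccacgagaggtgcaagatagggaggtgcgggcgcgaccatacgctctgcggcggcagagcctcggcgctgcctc
Gask1b (chr3:79885680-79885929, plus strand): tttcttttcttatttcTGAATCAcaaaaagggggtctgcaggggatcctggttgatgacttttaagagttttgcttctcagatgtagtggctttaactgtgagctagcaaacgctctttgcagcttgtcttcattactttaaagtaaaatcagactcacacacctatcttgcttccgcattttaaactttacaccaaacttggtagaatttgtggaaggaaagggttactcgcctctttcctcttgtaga
Gjb6 (chr14:57133612-57133861, minus strand): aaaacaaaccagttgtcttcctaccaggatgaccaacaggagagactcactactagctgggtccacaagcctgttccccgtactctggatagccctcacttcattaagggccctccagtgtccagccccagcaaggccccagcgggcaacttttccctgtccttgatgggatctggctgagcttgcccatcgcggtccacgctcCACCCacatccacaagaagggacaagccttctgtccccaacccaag

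The wound course set these regions apart by definition, and the other time courses give their scale. Regions held at all 4 points numbered 26014. Regions gained at 1 week and kept at both later points numbered 3324. A further 839 regions were held at 8 weeks alone and 2858 after the second wound alone. Of the 1296 regions absent early and held at 8 weeks, 457, or 35.3%, were also in the second-wound list. Of the 50206 regions absent from all of the first 3 points, 2858, or 5.69%, were in it. Where a region had been gained at 1 week and was still held at 8 weeks, it was in the second-wound list in 3324 of 4666 cases (71.2%), and where it had been gained at 1 week and was absent at 8 weeks, in 4513 of 11067 cases (40.8%). These shares rest on the lists that the rule used and are given as a description.

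Late-opening kept regions were mostly open in treated epidermis and mostly not called in culture. The vehicle list, from epidermis with 0 weeks in its titles, held 425 of the 457. That is 93.0% (Wilson 95% interval 90.3 to 95), against 67.1% of all union regions. The titles of the homeostasis group also give 0 weeks. Absence from the homeostasis list therefore does not show that these regions were closed without a wound. Why the homeostasis and vehicle lists differ was not tested. The UVB list held 435, or 95.2% (92.8 to 96.8), against 70.7%. The PRT4165 list held 407, or 89.1% (85.9 to 91.6), against 65.3%, and the list of wounded and UVB-treated epidermis 392, or 85.8% (82.3 to 88.7), against 63.5%. A union region absent from the wound course has to be in another list, so the shares of all union regions are partly set by construction. A stricter background is the 30073 regions held both at 8 weeks and after the second wound, of which these 4 lists held 99.5% (vehicle), 99.7% (UVB), 99.3% (PRT4165) and 99% (wounded and UVB). The shares of the late-opening regions lay 4.49 to 13.2 percentage points below that background.

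Cultured cells held far fewer of them. The list of cultured cells from the control region held 188, or 41.1% (36.7 to 45.7), against 52.2% of all union regions and 74.5% of regions held at both late points. The list from the distal memory region held 153, or 33.5% (29.3 to 37.9), against 44% and 70%. Regions gained at 1 week and kept were in these lists in 46.7% and 40.3% of cases, and regions held at 8 weeks alone in 38.4% and 31.9%. In both lists the interval of the late-opening kept regions overlaps that of the 8-week regions not found after the second wound. It also overlaps that of the regions gained at 1 week and kept in the control list (45.0 to 48.4), but not in the distal list (38.7 to 42.0).

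**Figure D1:**
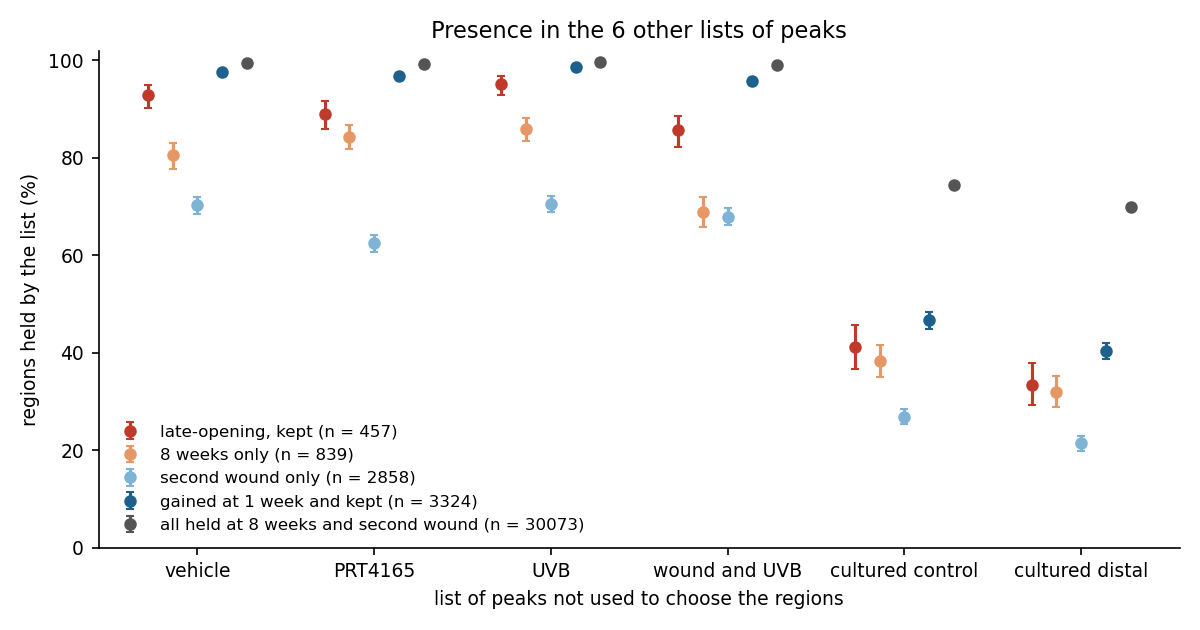
Share of regions (%) held by each of the 6 lists not used to choose them, for 5 classes of regions, with Wilson 95% intervals as bars. Late-opening kept regions sit between 85.8 and 95.2% in the 4 lists of treated epidermis and at 41.1 and 33.5% in the cultured lists, below the regions gained at 1 week and kept in all 6.

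The shares moved with the length of the lists. With every list limited to its 61957 strongest peaks, the number in the shortest list, 638 regions met the same rule, 456 of them among the 457. The vehicle list then held 57.4% of the 638, PRT4165 56.9%, UVB 57.5%, wounded and UVB 55.5% and the cultured control 34.2%. Under the same limit, 91.5 to 93.6% of the regions held at both late points were in the 4 lists of treated epidermis, so the distance of the late-opening class from that background was larger than with whole lists.

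Most of the late-opening kept regions were shared by several of the other groups. All 4 lists of treated epidermis held 336 (73.5%, against 49.2% of all union regions and 98% of the regions held at both late points), and 171 of these were in neither cultured list, which is 37.4% of the 457 against 17.2% and 22.9%. All 6 lists held 112 (24.5%, against 27.3% and 68.1%). At least 1 cultured list held 203 (44.4%, against 55.5% and 75.9%) and both held 138 (30.2%, against 40.7% and 68.7%). The regions called at 8 weeks and after the second wound alone numbered 4 (0.875%, against 0.644% of all union regions in none of the 6). Of the 30073 regions held at both late points, 6 (0.02%) were in none of these lists, the 4 among them. Of the 839 regions of the 8-week list alone, 24 (2.86%) were in none, and of the 2858 of the second-wound list alone, 258 (9.03%).

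The 3 matched pairs of groups split the regions unevenly, in the direction of the longer list each time. In the cultured pair, 50 late-opening kept regions were in the control list only and 15 in the distal memory list only, so that 76.9% (65.4 to 85.5) of those in 1 list were on the control side, against 80.9% among all regions held at both late points. In the UVB pair, 53 were in the UVB list only and 10 in the wounded and UVB list only (84.1%, 73.2 to 91.1, against 80.6%). In the PRT4165 pair, 38 were in the vehicle list only and 20 in the PRT4165 list only (65.5%, 52.7 to 76.4, against 61.3%). All 3 intervals include the value of the regions held at both late points. Over all union regions the same shares are 77.7% (cultured pair), 68.0% (UVB pair) and 55.4% (PRT4165 pair), and the UVB value lies below the interval of the late-opening regions.

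Where present, the regions were weak in the lists that define them and of middling strength in treated epidermis. Strength is given as the percentile of a region's signal value, the authors' enrichment of its strongest peak, among the merged regions of the same list. At 8 weeks the median percentile was 25.5 (quartiles 14.7 and 42.5, highest 90.4), with signal values of 3.49 to 15.5 and a median of 7.37. After the second wound it was 30.4 (16.7 and 44.8, highest 90.8), with a median signal value of 7.70. In the upper part of its list, above the 50th percentile, lay 63 regions (13.8%) at 8 weeks and 90 (19.7%) after the second wound. In the vehicle list the median of the 425 held was 49.8, in PRT4165 49.4, in UVB 56.9 and in wounded and UVB-treated epidermis 49.4. The cultured lists had medians of 41.1 (control, 188 regions) and 44.0 (distal, 153 regions). Ranks in lists of different lengths are not a change in accessibility. The lists differ in how many weak regions they hold below a given one.

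Regions gained at 1 week and kept ranked higher in the wound-course lists and in 5 of the 6 other lists, with medians of 30.5 at 8 weeks and 39.9 after the second wound. All regions held at both late points had medians of 55.3 and 61.4. Regions of the 8-week list alone ranked lower than the late-opening regions, with a median of 21.2 in that list and 40.8 in vehicle. Those of the second-wound list alone had medians of 23.1 in it and 35.2 in vehicle. A low rank in the wound course and a higher one in vehicle was thus shared by these classes. The authors' score, at least 540 in every list, had a median of 663 at 8 weeks and 723 after the second wound. Over all union regions in those lists the medians were 902 and 978. The score was under 600 for 121 (26.5%) and 77 (16.8%) of the 457, against 8.17 and 6.34% of all union regions there. For regions of the 8-week list alone that share was 40.8%, and for those of the second-wound list alone 28.3%. In the vehicle list the late-opening regions had a median score of 1000, as did all union regions held by it. The weakest member of all lay at Zfp36, with signal values of 3.49 at 8 weeks and 3.65 after the second wound. Just outside the rule were 15 regions of the 8-week list that overlap a second-wound peak and no early peak directly, but lie in a union region that an early peak touches elsewhere. Merged widths had a median of 641 bp (251 to 1784), between the 569 bp of regions held at 8 weeks alone and the 759.5 bp of those gained at 1 week and kept. A union region can only widen with each list that adds a peak.

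**Figure D2:**
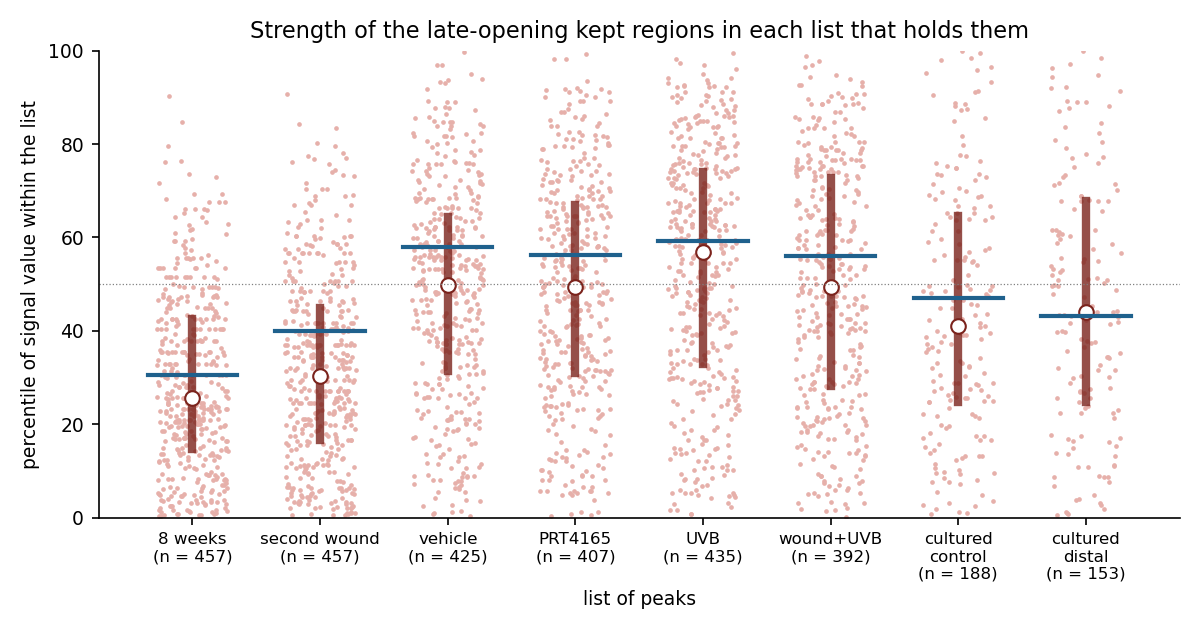
Percentile of signal value within each list (y axis) for the late-opening kept regions held by that list (points), with their median (white circle) and quartiles (bar), and the median of regions gained at 1 week and kept (blue line). Medians lie at 25.5 and 30.4 in the 8-week and second-wound lists and at 41.1 to 56.9 in the 6 others; the dotted line is the 50th percentile.

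The order of the regions was partly shared between the 8-week and the second-wound list, with a Spearman correlation of percentiles of 0.58 over the 457, against 0.67 over the 3324 regions gained at 1 week and kept. Points from 1 list share its libraries, and a narrow range of ranks lowers such a value. The percentile was higher after the second wound for 266 regions (58.2%) and at 8 weeks for 191. It was higher after the second wound for 65.0% of the regions gained at 1 week and kept. Among the 30073 regions held at both late points it was higher for 61.4%, so the share of the late-opening regions was below both. The largest rise in rank was that of a region with no gene within 100 kb (chr8:44661553-44662302), at 6.43 at 8 weeks and 68.8 after the second wound, and the next that of a region at Dtnbp1 (chr13:45030843-45031245), at 14.3 and 67.0. A region at Cstf2 (chrX:134065912-134066779), which encodes a cleavage stimulation factor of mRNA 3′ end formation, went the other way, from 69.3 to 22.1, as did one at Cxcl17, a mucosal chemokine, from 61.8 to 19.8. These extremes were chosen after their values were seen. Presence in culture was similar at all ranks: the cultured control list held 39.5% of the weakest 152 regions by mean percentile, 42.1% of the middle 152 and 41.8% of the strongest 153.

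The regions lay mainly away from gene ends. Within 1 kb of an end of a protein-coding gene were 35, or 7.66% (5.56 to 10.5), against 14.2% of all union regions and 29.4% of regions held at both late points. Gene ends stand for start sites here, because strand was not used for all genes. Inside a gene lay 243 (53.2%, 48.6 to 57.7), against 51.3% and 51.6%. Outside genes, 99 (21.7%) were 1 to 20 kb from the nearest gene, 56 (12.3%) were 20 to 100 kb away and 44 (9.63%) had no gene within 100 kb. Regions of the 8-week list alone (6.32% at gene ends) and regions gained at 1 week and kept (9.21%) had similarly low shares, with overlapping intervals.

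**Figure D3:**
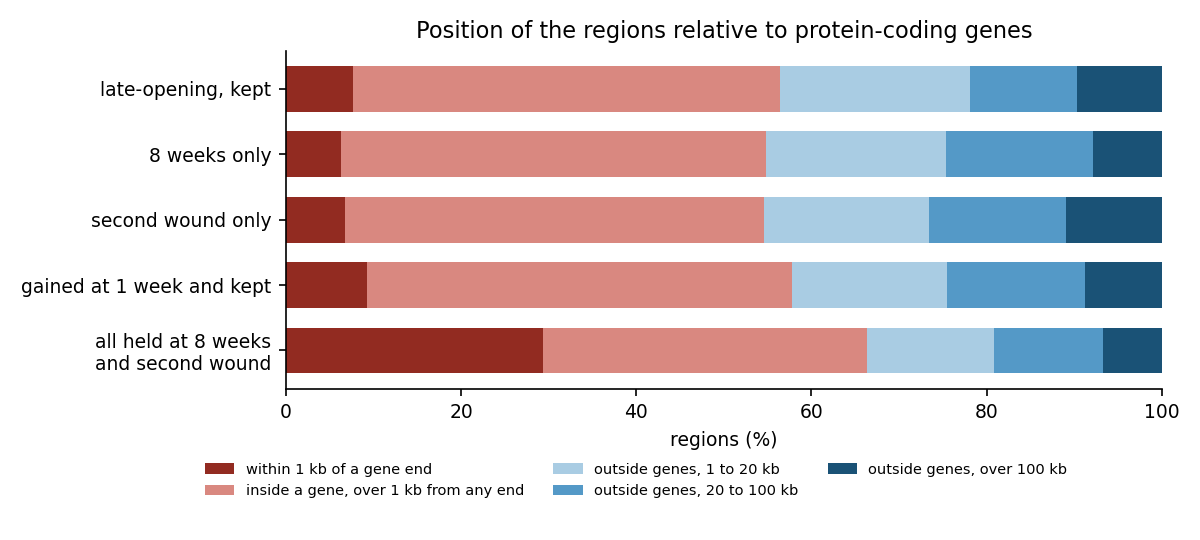
Position of the summit of each region relative to protein-coding genes, as stacked shares (%) of 5 classes of regions. The share within 1 kb of a gene end is 7.66% for late-opening kept regions and 29.4% for all regions held at both late points, and over 1 kb inside a gene it is 48.8 and 37.0%.

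Position went with presence in culture. The cultured distal list held 23 of the 35 regions at gene ends (65.7%, 49.2 to 79.2) and 130 of the 422 elsewhere (30.8%, 26.6 to 35.4). The cultured control list held 22 of the 35 (62.9%, 46.3 to 76.8) and 166 of the 422 (39.3%, 34.8 to 44.1). The same order held among all regions kept at both late points, with 94.6% at gene ends and 59.8% elsewhere in the distal list. In the vehicle list the shares of the late-opening regions were near each other, 97.1% and 92.7%.

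Open chromatin of the early lists lay some kilobases from most of the regions. The nearest homeostasis peak was 11639 bp away in the median and the nearest 1-week peak 8013 bp, with minima of 35 and 64 bp. A homeostasis peak lay within 500 bp of 18 regions (3.94%) and a 1-week peak within 500 bp of 27 (5.91%). Requiring that no early peak lie within 500 bp left 428. Of the 413 regions with a gene, 366 (88.6%, 85.2 to 91.3) were at genes that already had a region in homeostasis, with a median of 3 such regions per gene, against 90.8% of all union regions with a gene. The interval includes the share of all union regions.

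The regions were scattered. The 413 with a gene fell to 408 genes, the median distance to the next on the same chromosome was 1562 kb, 18 had another within 50 kb and 0 within 10 kb. Chromosome 1 had the most, 40, which is 0.549% of its union regions, against 0.630% on chromosome 8 with 33. Chromosome X had 14 (3.06%, 1.83 to 5.08, against 2.20% of all union regions) and Y 0. No annotated miRNA hairpin was overlapped. Only 5 genes had 2 regions and none had more. These were Dtnbp1, which encodes dysbindin of the lysosome-related organelle complex BLOC-1; Tpst1, a tyrosylprotein sulfotransferase; Osbpl1a, an oxysterol-binding protein relative; Adamts7, a secreted metalloprotease; and Mreg, melanoregulin, known for its role in the transfer of pigment granules. The regions of a pair differed in strength: at Tpst1 the region 26201 bp inside the gene stood at percentiles 46.3 and 53.3 (8 weeks, then second wound) and was in all 6 other lists, while that 5297 bp inside stood at 4.84 and 2.07, had a homeostasis peak 109 bp away and was in the 4 lists of treated epidermis only.

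The strongest late-opening kept region lay inside Fank1, which encodes a protein with fibronectin type III and ankyrin repeats known from testis. It spans chr7:133847014-133847601, 34147 bp from the nearest end of the gene. Its percentile was 84.7 at 8 weeks and 90.8 after the second wound. It was 97.0 in vehicle, 98.2 in PRT4165, 99.5 in UVB, 98.8 in wounded and UVB-treated epidermis, 88.6 in cultured control cells and 91.4 in cultured distal cells. The nearest 1-week peak was 40920 bp and the nearest homeostasis peak 44717 bp away. A region among the strongest in every other list was thus not called at the first 2 points of the wound course.

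The next lay inside Napepld, the phospholipase D that releases N-acylethanolamines (chr5:21667336-21668068, 4991 bp from an end). It had percentiles of 90.4 at 8 weeks and 73.4 after the second wound and of 88.5 to 94.0 in the 4 lists of treated epidermis. Neither cultured list held it. Col24a1, a fibrillar collagen gene, had a region 24187 bp outside it (chr3:145267918-145268651) at 76.3 and 79.5, which was in all 6 other lists at 58.6 to 94.1. The nearest homeostasis peak was 10857 bp and the nearest 1-week peak 148708 bp from it. The region of Sncb, β-synuclein, was the only 1 of the 12 strongest at a gene end, 301 bp from it (chr13:54758198-54758950). It stood at 61.0 and 84.2, and Sncb had 0 homeostasis regions.

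The rest of the 12 strongest had mean percentiles of 64.7 to 70.3 over the 8-week and second-wound lists. They were at Tomm20, a receptor of mitochondrial protein import; Sp2, an SP family transcription factor; Reps1, an endocytic adaptor; Cyria, a regulator of actin through RAC1; Kif24, a kinesin of the centriole; Minpp1, an inositol polyphosphate phosphatase; Paqr5, a membrane progestin receptor; and Dtnbp1. The assigned gene is the nearest by position, as far as 90845 bp away for Tomm20, and need not be the gene a region acts on. All 12 were in the vehicle, PRT4165 and UVB lists, 11 in the wounded and UVB list, 7 in the cultured control list and 6 in the cultured distal list. The intervals of the culture shares (32.0 to 80.7% in control and 25.4 to 74.6% in distal) include those of all 457, 41.1% and 33.5%. Summits of 6 of them lay inside the gene.

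**Figure D4:**
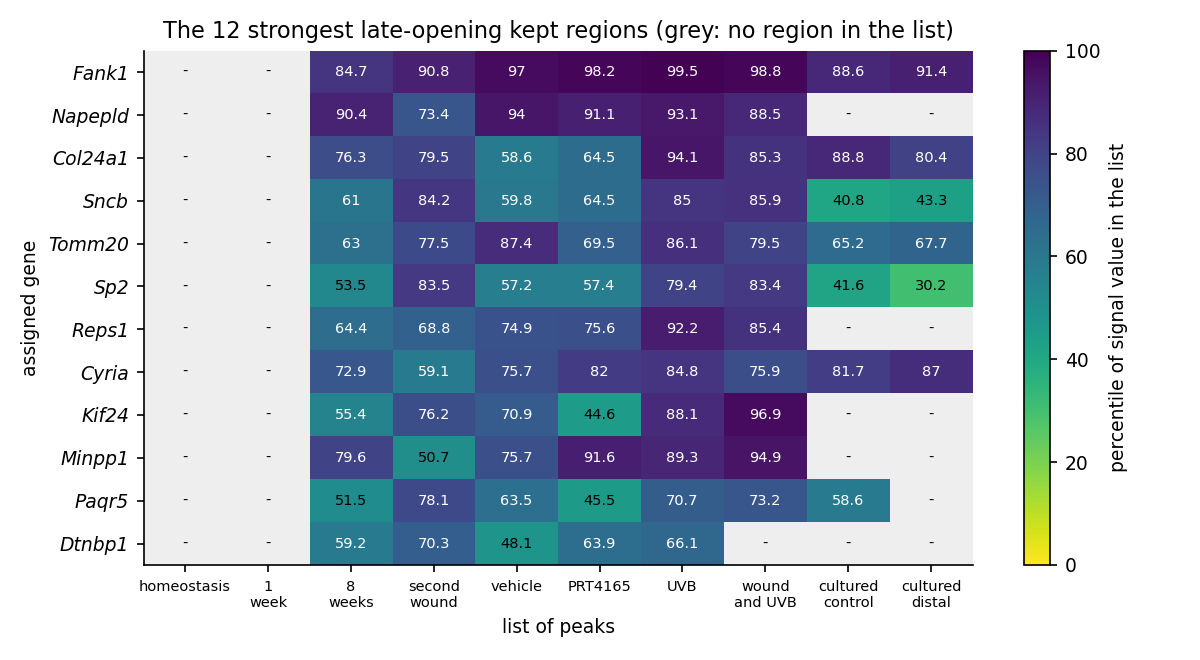
Percentile of signal value within each of the 10 lists (colour and number) for the 12 strongest late-opening kept regions, named by assigned gene; grey cells have no region in that list. The homeostasis and 1-week columns are empty by the rule; the Fank1 region is at 84.7 to 99.5 in the 8 lists that hold it, and 5 of the 12 are in neither cultured list.

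Around the regions, neighbouring sites followed other courses. Near Napepld, a site about 9 kb to the left was called in homeostasis at percentile 36.2, at 1 week at 76.2, at 8 weeks at 44.8 and after the second wound at 70.8. A site on the other side was held at 1 week (32.4) and after the second wound (28.4) and not at 8 weeks. Near Gjb6, a pair of sites 4 to 6 kb away was already called in homeostasis at 26.5 and 6.42. The late-opening region over the start site of Gjb6, with its summit 252 bp inside the gene, was called at 8 weeks at a low rank, 8.18. It stood at 9.33 after the second wound, 19.4 in vehicle, 12.2 in PRT4165, 43.8 in UVB and 45.4 in wounded and UVB-treated epidermis. Neither cultured list held it. Near Fkbp11 no list but the cultured control had another site within the 15 kb drawn on each side.

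**Figure D5:**
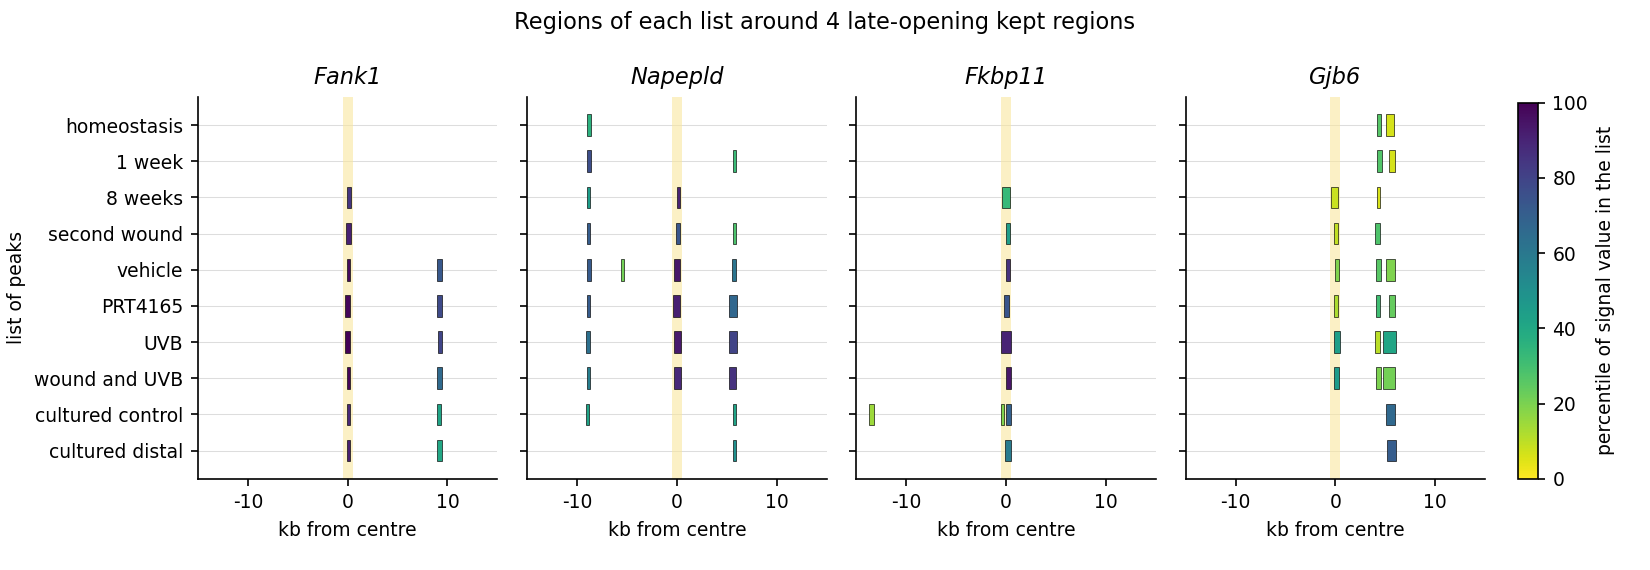
Merged regions of each of the 10 lists (rows) around 4 late-opening kept regions, by distance from the centre of the member (kb) and coloured by percentile of signal value. The pale band is a window around that centre with the same width in every panel, not the extent of the member. In all 4 panels the band holds no region in homeostasis and at 1 week. It holds a region in every list from 8 weeks on, except in the cultured lists at Napepld and Gjb6.

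At start sites, the strongest of the 18 promoter-overlapping regions by the mean of both late lists were those of Aadat and Fkbp11. Fkbp11 encodes a peptidyl-prolyl isomerase of the endoplasmic reticulum. Its region stood at 32.6 at 8 weeks and 44.4 after the second wound, and at 94.4 in wounded and UVB-treated epidermis; the printed promoter holds none of the 6 marked motifs, and the other Fkbp11 promoter under the same region (chr15:98727628-98727877, not printed) holds a CCAAT box and a GC box. Tspan1, a tetraspanin of epithelia, stood at 33.9 and 33.5, with a GC box and 3 SP/KLF letters in its promoter. Aff2, of a family of nuclear transcription regulators, stood at 28.4 and 28.9 and has 3 GC boxes.

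Pcdh8, a protocadherin, stood at 17.1 and 32.3 and at 84.0 in vehicle, but only at 12.7 and 8.75 in the cultured lists. Syn1, a synapsin of neurons, stood at 20.1 and 24.6 and at 77.5 and 67.8 in cultured control and distal cells; its promoter holds the cAMP response element on both strands of 1 palindrome. Gask1b, a Golgi-associated kinase relative, stood at 13.6 and 26.6, and its promoter is the only 1 of the 19 with the AP-1 letters. They lie outside the late-opening region, which starts at 79885886 and covers only the end of the promoter next to the start site. Each of Pcdh8, Syn1 and Gask1b thus ranked low at both late points, and in culture the first was weak while the others were in the upper part of both lists.

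The base composition of the 19 promoters was near that of promoters at large. Median GC content was 55.6%, as over all 21262 promoters, against 61.2% over the 9489 in regions held at both late points. The median number of CpG dinucleotides was 9, against 10 and 17. The GC box was in 8 (42.1%; 42.6% of all promoters and 64.7% of those in regions held at both late points), the ETS core in 2 (10.5%; 15 and 25.5%) and the CCAAT box in 4 (21.1%; 35.4 and 37.5%). The SP/KLF letters were in 12 (63.2%; 54.2 and 57.2%), AP-1 in 1 (5.26%; 6.13 and 4.12%) and the cAMP response element in 1 (5.26%; 3.36 and 5.45%). Of the motifs not drawn in capitals, the E-box CANNTG was in 12 (63.2%; 62.8 and 54.8%), the RUNX letters TGTGGT in 2 (10.5%; 12.4 and 9.60%) and the NF-kB letters GGGANNTCC in 2 (10.5%; 3.91 and 4.66%). The letters AGATAA of GATA factors and ACAATG of SOX factors had 1 each, and TEAD (GGAATG), TCF/LEF (CTTTGAT) and FOX (TGTTTAC) had 0 of 19, which allows shares up to 16.8%. Both strands were searched, and no base lay in 2 of the marked motifs. The intervals of the shares over 19 promoters are wide: for the GC box it runs from 23.1 to 63.7%, which includes the share of all promoters and ends just below that of regions held at both late points. Promoters are a small part of mostly distal regions.

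Shares in culture were higher among the promoter-overlapping regions than over the class as a whole. The cultured distal list held 14 of the 18 (77.8%, 54.8 to 91.0) and the cultured control list 13 (72.2%, 49.1 to 87.5), and the vehicle list held all 18. Of all union regions within 1 kb of a gene end, the distal list held 75.1% and the control list 79.6%, inside both intervals. Of the regions at gene ends held at both late points, these lists held 94.6% and 96.1%, above both intervals. High shares in culture were thus not particular to the late-opening regions.

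Genes of the 24 lists examined were touched rarely. The lists name 452 genes, of which 451 were found, and 15 genes had 1 late-opening kept region each. That is 15 of the 4216 union regions assigned to listed genes, or 0.356%, against 0.449% over all genes. No list had more than 3 regions, so the genes below are described singly. Besides the lists whose shares are given below, inflammation and alarmins had 2 of 225 (0.889%) and bulge and lower follicle 2 of 312 (0.641%). The sebaceous gland list had 1 of 112 (0.893%) and epidermal differentiation 1 of 188 (0.532%). The keratinocyte and sorted lineage list had 1 of 223 (0.448%) and the Wnt pathway 1 of 406 (0.246%).

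Immediate early genes, which respond within minutes to stress and injury, had 3 of 239 regions (1.26%). Jun, a subunit of AP-1, had a region 91569 bp away at percentiles 33.5 at 8 weeks and 49.5 after the second wound. Dusp1, a phosphatase of MAP kinases, had one 18128 bp away at 3.31 and 6.36. That of Zfp36, which binds and destabilizes mRNA of cytokines, was 1065 bp away at 0.375 and 0.618. None of the 3 was in the cultured distal list.

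The Notch pathway, which drives keratinocytes out of the basal layer, had 3 of 241 (1.24%). Maml3, a coactivator of Notch, had a region 139267 bp inside it at 42.5 and 58.2. Rbpj, the DNA-binding partner of Notch, had one 64894 bp away at 19.7 and 35.1, which was absent from the vehicle list and stood at 93.3 and 89.1 in the cultured control and distal lists. That of Notch3, a receptor also counted with epidermal differentiation, was 3168 bp away at 9.69 and 10.9.

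Among stem cell genes, Lgr5, a marker of cycling cells of the lower follicle, had a region 5669 bp away at 53.5 and 41.8, and the nearest homeostasis peak was 42537 bp from it. Runx1, a transcription factor of follicle stem cell activation, had one 19460 bp inside it at 16.4 and 7.60, in all 6 other lists. Tfap2c, an AP-2 factor of keratinocytes, had one 65221 bp away at 28.0 and 41.8, which stood at 86.4 to 94.1 in the 4 lists of treated epidermis and was in neither cultured list. The region of Wnt3a, a ligand of the Wnt pathway, was 3041 bp away at 37.0 and 36.5.

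Among inflammatory genes, Tnfaip3, a brake on NF-kB signalling, had a region 28701 bp away at 55.5 and 60.3, in the 4 lists of treated epidermis at 81.1 to 91.2 and in neither cultured list. Il18, an epidermal cytokine, had one 11505 bp inside it at 59.2 and 24.6. That region stood at 98.3 in UVB, 99.6 in cultured control and 98.4 in cultured distal cells, and Il18 had 0 homeostasis regions. It is among the strongest sites of both cultures and was not called at the first 2 points of the wound course.

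Cell cycle genes had 2 of 164 (1.22%). Cdk6, a kinase of the step from G1 to S phase, had the only region at an end of a listed gene, 458 bp from it (chr5:3341148-3341793), at 3.74 and 16.7. That of Mki67, a marker of dividing cells, was 11666 bp away at 34.7 and 16.4. Mgst1, a glutathione transferase of the sebaceous gland list, had one 2783 bp away at 19.4 and 23.4. The remaining lists had 0: upper follicle (of 174 regions), interfollicular basal layer (304), wound-activated keratinocytes (188), p53 and DNA damage (226), TGF-beta and BMP (450), EGFR and growth factor receptors (311), Polycomb (178), developmental regulators (138), glycolysis and hypoxia (211), and the 6 lists of other cell types (35 to 88 each). Of the 15 regions at listed genes, 14 were in the vehicle list, 15 in PRT4165, 15 in UVB, 15 in wounded and UVB-treated epidermis, 7 in cultured control and 5 in cultured distal cells. The intervals of the culture shares (24.8 to 69.9% in control and 15.2 to 58.3% in distal) include those of all 457, 41.1% and 33.5%.

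The 4 regions called at 8 weeks and after the second wound alone were at Ica1, Pacs2, Sipa1l3 and 1700001O22Rik. That of Ica1, which encodes an islet cell autoantigen of secretory vesicles, lies 45802 bp inside the gene (chr6:8732512-8733074), stood at 9.34 at 8 weeks and 33.8 after the second wound, and had a 1-week peak 2937 bp away. The other 3 were among the weakest peaks of their lists. Pacs2, a sorting protein of the endoplasmic reticulum (chr12:113016785-113017270), stood at 3.33 and 5.83. Sipa1l3, a regulator of RAP GTPases (chr7:29354217-29354484), stood at 1.98 and 3.73. The region nearest to 1700001O22Rik (chr2:30709271-30709656) stood at 0.733 and 3.55, with a homeostasis peak 723 bp away. None of the 4 ranked above 33.8 of either list.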

How the data were processed

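The deposited data are 10 lists of peaks on mm10 (build per the submitters' processing notes), 1 per group from its 2 libraries. As far as their names tell, they keep peaks reproducible between replicates; not given in the sources used here: aligner, peak caller, threshold, read depth and any Tn5 shift. Each deposited list gives per peak the authors' score, never under 540, the authors' signal value, used here to rank regions within a list only, and the authors' −log10 p (2.00 or higher). The summit offset is another deposited value and gave the position used for annotation.

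Peaks of a list on chromosomes 1 to 19, X and Y that overlap were merged into regions, and the regions of the 10 lists into 101406 union regions with Python 3.11.15 and its packages pandas 2.3.3, scipy 1.17.1, numpy 2.4.6 and, for figures, matplotlib 3.10.9. bedtools 2.31.1 gave the same 457 intervals, and the code was tested on simulated data with known patterns. Intervals are Wilson 95% intervals. The gene of a region is the shortest of 21883 protein-coding genes of the RefSeq table for GRCm38.p6 containing the summit of its strongest peak, or the one with the nearest end within 100 kb. Of the 408 genes with a member, 323 had a promoter in the RefSeq table. The labels give 2 libraries per group but no list holds values per library, so libraries could not be compared.

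Named regions are the 12 with the highest mean percentile in the 8-week and second-wound lists, the strongest (up to 6) in none and the strongest 4 in all 6 other lists, those within 1 kb of an end of a listed gene, the 12 genes with most members and up to 3 genes per list; promoters and extremes were added after their values were seen. The members and gene lists were chosen with earlier results of these data known. Alternatives were other overlap rules, the strongest 50% of peaks, lists of equal length, a union of the 4 wound-course lists, a gap of 500 bp, a gene limit of 20 kb and a gene end window of 500 bp; those on cover of a region and on direct overlap were added after the data were seen. The planned use of start sites was changed to gene ends, because the promoter table lacks part of the genes.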

Additional observations from a re-analysis of the deposited data

How the results depend on the processing

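Of 60 recomputed values of 13 results, 51 were counted as unmoved. The bound was the counting interval for shares and a factor of 1.5 for counts. For median percentiles it was the quartiles of the regions, a spread of regions and not a counting interval. The 51 include all values under the overlap of 50% of the shorter interval and the overlap by summit, which could not move. The number of late-opening kept regions was 457; it fell to 216 when only the strongest 50% of the 8-week and second-wound peaks counted, and was 638 with wound-course lists of equal length, 466 in a union of the 4 wound-course lists, 428 with no early peak within 500 bp, 471 by direct overlap and 474 (346 of them among the 457) when the peaks of a list had to cover at least 50% of a region. With all 10 lists of equal length the shares held moved to 57.4% (vehicle), 56.9% (PRT4165), 57.5% (UVB), 55.5% (wounded and UVB) and 34.2% (cultured control), and that of the cultured distal list stayed at 32.0%; each list then holds fewer of its weak peaks. With cover of at least 50%, PRT4165 held 84.0%, wounded and UVB-treated epidermis 81.6%, and 10.5% of the regions were within 1 kb of a gene end; the cause was not tested. The planned overlap of 50% of the shorter interval and overlap by summit equal the main rule by construction, since every peak lies inside its union region. No paired analysis was possible because each group has 1 list made from both libraries. For the same reason no library could be left out. Absence from a list means that no peak passed the authors' threshold, not that the site was closed, and read depth is unknown.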
